A study of Mus musculus with 14 samples.

Results

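In a culture of adult mouse neural stem cells kept with BMP4, 169 of 887 cells (19.1%, exact Clopper-Pearson 95% interval 16.5 to 21.8) held 1 or more raw counts summed over Mki67, Top2a and Cdk1. These 169 cells, called marker-positive here, were chosen by that rule from the 2297 cells in the BMP4 and EGF culture libraries. They were set beside the 718 BMP4 cells with 0 counts of the 3 genes and beside the 1112 of 1410 EGF cells (78.9%, 76.6 to 81.0) that met the same rule. The other 298 EGF cells had 0 counts. The study profiled neural stem cells in 14 samples and was set up to compare active with quiescent cells, among other questions. Both cultures were wildtype cells isolated from the subventricular zone of adult mice and then grown in culture. One was treated with BMP4 for 3 days, and the other with EGF, for which the treatment label also states 3 days. Of strain, age in weeks, number of animals, pooling and passage the sources used here say nothing. Each culture is 1 droplet library (10x Genomics, oligo(dT) capture), so no difference here has a replicate check and no test was made. All intervals are 95% intervals that cover counting error only.

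Mki67 encodes the Ki-67 antigen of cycling nuclei, Top2a the topoisomerase that untangles DNA before and during mitosis, and Cdk1 the kinase that drives entry into mitosis. EGF keeps neural stem cells of this niche dividing in culture, whereas BMP4 acts through SMAD proteins, induces the Id genes and brings the cells into a reversible quiescent state with astrocyte-like expression. Genes of DNA replication are classical targets of E2F factors. Genes of G2 and mitosis are read from promoters with a CHR element, which in quiescent cells is held by the repressive DREAM complex and in cycling cells by B-MYB and FOXM1.

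Many but not all promoters of the cycle lists hold these motifs, and short windows from genes that hold them are printed to show the letters. RefSeq promoters of GRCm38.p6, from 250 bases before to 50 bases after each start, were matched for 34 of the 41 genes of the G2/M list and 28 of the 36 genes of the S phase list. The CHR letters TTTGAA or TTCGAA, on either strand, were in 28 of 37 promoters of the G2/M list (75.7%), in 4 of 31 of the S phase list (12.9%) and in 19.2% of all 32851 promoters. The E2F letters TTCCCGC or TTGGCGC, on either strand, were in 8.11% of G2/M promoters, 51.6% of S phase promoters and 6.81% of all promoters. CCAAT, searched on both strands, was in 78.4%, 64.5% and 37.4%. Windows are given 5′ to 3′ on the gene's strand, with the CHR letters or their complement in capitals, for G2/M genes that hold them and were among the most abundant in the BMP4 cells richest in markers.
Ube2c: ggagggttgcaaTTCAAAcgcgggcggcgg
Cenpa: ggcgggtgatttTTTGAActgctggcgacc
Cdca3: cgtggagggaagTTTGAAactccgggcttt
Cenpf: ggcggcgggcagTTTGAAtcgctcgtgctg
Prc1: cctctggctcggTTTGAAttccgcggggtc
The windows lie on chr2:164769888-164769917 (plus strand), chr5:30666890-30666919 (plus), chr6:124830194-124830223 (plus), chr1:189688067-189688096 (minus) and chr7:80294434-80294463 (plus), in that order. For the S phase list the capitals mark the E2F letters or their complement.
Rrm1: aggagaactcgTTCCCGCcaggtccgctt
Dtl: tgaaccttgggTTCCCGCggctgagcgag
Rpa2: gctgtcccttcGCGGGAAggagtttgtgg
These lie on chr7:102441617-102441645 (plus), chr1:191575636-191575664 (minus) and chr4:132768312-132768340 (plus). A match of letters is a description of the sequence and shows no bound factor.

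Marker-positive BMP4 cells were somewhat deeper than the rest of their library. Their median was 20615 counts per cell (5537 to 58536), against 16981 in BMP4 cells with 0, 20163 in EGF cells with 0 and 23720 in marker-positive EGF cells. Mitochondrially encoded genes took 9.04%, 9.38%, 6.86% and 6.09% of counts in these 4 groups. Markers of neural stem cells (Sox2, Nes, Vim, Slc1a3 and Fabp7) were found in all 169 cells, with 18 to 656 counts a cell. They summed to 4967 CPM (counts scaled to 1e6 counts of the group), against 4782 CPM in BMP4 cells with 0 and 5071 CPM in marker-positive EGF cells. Between marker-positive BMP4 and EGF cells Sox2 was at 189 and 161 CPM and Slc1a3 at 1401 and 428. Nes was at 11.7 and 177 CPM, Vim at 412 and 844, and Fabp7 at 2954 and 3461. The fatty acid binding protein gene Fabp7 and the glutamate transporter gene Slc1a3 were each in 169 of 169 cells, the transcription factor gene Sox2 in 151, Vim in 162 and the intermediate filament gene Nes in only 31. All 8 microglial markers looked for, among them Ptprc and Cx3cr1, were at 0 in the 169 cells, and a longer list of 13 summed to 5 counts in the 21 cells of most markers described below. Of 6 endothelial and mural markers, Cldn5 and Pdgfrb were at 0 and the others summed to 32 counts. Of 6 oligodendrocyte markers, Sox10 and Mog were at 0 and the others summed to 169 counts in 77 cells. The 2 libraries shared 1 cell barcode, which had 0 marker counts in the BMP4 library.

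Most marker-positive BMP4 cells sat at the edge of the rule. Exactly 1 count was found in 115 of the 169 (68.0%), 2 to 3 in 23, 4 to 9 in 10, and 10 or more in 21, which is 2.37% of the BMP4 library (1.47 to 3.60). In the EGF library these steps held 191, 241, 248 and 432 cells, so that 17.2% of marker-positive EGF cells had a single count and 38.8% had 10 or more. The 21 BMP4 cells with 10 or more, from 11 to 46 counts each with a median of 19.0, held 462 of the library's 687 counts of the 3 genes (67.2%), and the single-count cells 16.7%. Single counts were of Top2a in 44 cells, Cdk1 in 41 and Mki67 in 30. All 3 genes were detected together in 24 BMP4 cells (2.71%, 1.74 to 4.00) and 511 EGF cells (36.2%, 33.7 to 38.8). Alone, Mki67 was in 66 BMP4 cells (7.44%), Top2a in 89 (10.0%) and Cdk1 in 81 (9.13%).

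**Figure D1:**
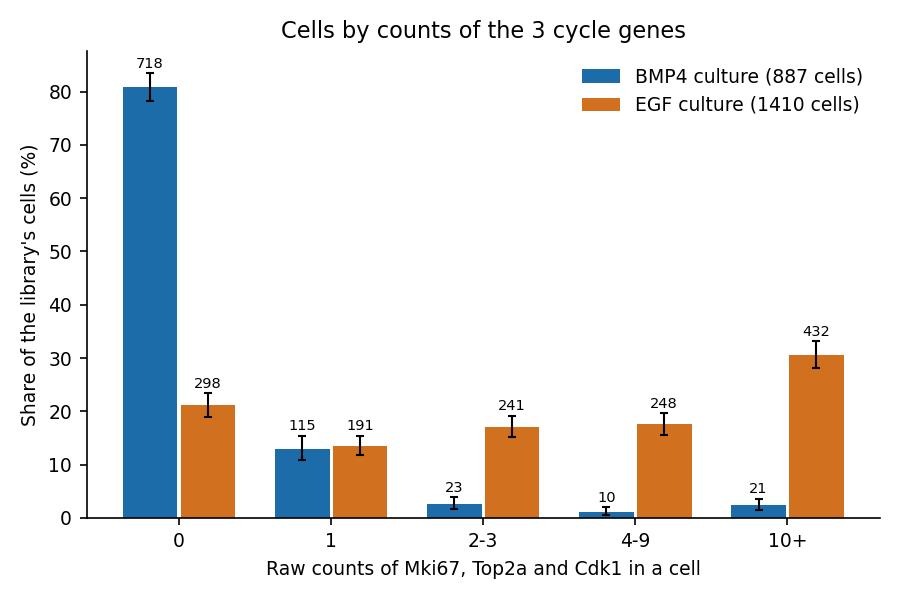
Share of cells in each culture library (y axis, percent) by the raw counts of Mki67, Top2a and Cdk1 summed in a cell (x axis), with exact 95% intervals and the number of cells above each bar. Single-count cells are 13.0% of the BMP4 library and 13.5% of the EGF library, whereas cells with 10 or more are 2.37% and 30.6%.

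Depth moved the share. After every cell was thinned to 4500 counts, which left out no cell, 57 BMP4 cells (6.43%, 4.90 to 8.25) and 741 EGF cells (52.6%, 49.9 to 55.2) still held a marker count, and the share expected over all possible draws was 7.42% and 52.7%. Among the marker-positive BMP4 cells, 22 of 115 with a single raw count were kept by the thinning, 9 of 23 with 2 to 3, 8 of 10 with 4 to 9, and 18 of 21 with 10 or more. Median depth went from 19920 counts in single-count cells to 20226, 28890 and 25306 at the higher steps. No cell type that lacks these genes was at hand in either library to measure the level given by free RNA, so the part of free RNA in the single counts was not tested.

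The single-count cells were nearer to the cells with 0 than to the higher steps, but above them in cycle genes. These are the values just inside and just outside the threshold. Genes of the S phase list summed to 270 CPM in the 115 cells against 212 CPM in the 718, and genes of the G2/M list to 186 against 113 CPM. The median cell was at 223 against 186 CPM for S phase and 124 against 90.9 CPM for G2/M genes. Pcna, the sliding clamp of DNA replication, stood at 22.2 against 16.7 CPM. Ccnb1, the cyclin partner of Cdk1, was at 3.07 against 1.74 CPM, from few counts. It had 8 counts in 5 single-count cells and 23 in 11 cells with 0, 43.5% of the latter in 1 cell. Of 10497 genes with 50 or more counts over both groups, 36 (0.343%) were 2-fold or more higher in single-count cells and 53 (0.505%) were 2-fold or more lower. Sums of the cycle genes were higher at the further steps. S phase genes summed to 713, 1591 and 2022 CPM at 2 to 3, 4 to 9, and 10 or more counts, and G2/M genes to 913, 1375 and 5212 CPM. At 2 to 3 counts a few cells carried the sums: the median cell was at 315 CPM for S phase and 238 CPM for G2/M genes, against 186 and 90.9 CPM among cells with 0. After thinning to equal depth, 8 of these 23 cells lay above the 95th percentile of cells with 0 (4 counts of both lists together), against 9 of 10 at 4 to 9 and 21 of 21 at 10 or more. Above it too were 12 of 115 single-count cells (10.4%) and 20 of 718 cells with 0 (2.79%).

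Read per cell at equal depth, the cells with 10 or more marker counts lay above the cells with 0 on both lists together. The lowest of these 21 cells held 15 S phase and G2/M counts after thinning. That level was reached by 0 of 718 BMP4 cells with 0 markers. It was reached by 3 of 115 with 1 count, 6 of 23 with 2 to 3 and 6 of 10 with 4 to 9. By that level, set from the data, 36 BMP4 cells (4.06%, 2.86 to 5.57) and 776 EGF cells (55.0%, 52.4 to 57.7) were high in cycle genes, 17 of the EGF cells without any marker count. Within 3 counts below that level lay 3 BMP4 and 99 EGF cells, and within 3 counts above it 4 and 78. Beside the 36 and 776 high cells, these counts show no gap particular to the BMP4 culture. The 21 cells held 1 to 19 thinned S phase counts (median 9) and 7 to 56 thinned G2/M counts (median 21), against medians of 1 and 0 in cells with 0. On each list alone the groups overlapped, as cells with 0 held up to 12 S phase and 8 G2/M counts. In raw counts, 6 of the 21 held more S phase than G2/M counts and 15 held more G2/M, against 92 and 338 of 432 EGF cells at the same step. More S phase than G2/M counts were also held by 7 of 10 BMP4 cells at 4 to 9 markers, 80 of 115 single-count cells (69.6%) and 477 of 718 with 0 (66.4%), so that this order alone places no cell in S phase. These lists were chosen as companions of the markers, so their level in marker-positive cells is a description of what the rule selects.

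**Figure D2:**
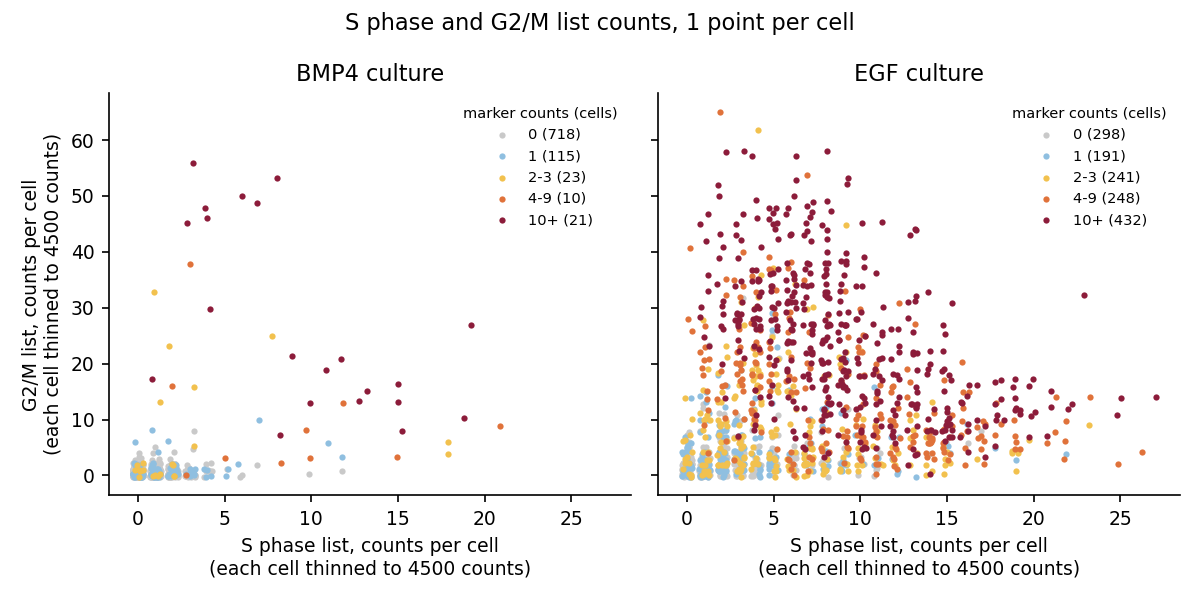
Counts per cell of the S phase list (x axis, 36 genes) and the G2/M list (y axis, 41 genes), each cell thinned to 4500 counts, coloured by raw marker counts, with points shifted slightly to separate them. In the BMP4 panel the 21 cells with 10 or more marker counts have 7 to 56 G2/M counts. Most cells with 0 or 1 marker count lie below them, near the origin.

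Against BMP4 cells with 0, the 169 marker-positive cells were higher in genes of replication and mitosis and close to them in most other lists. This contrast chose the cells, so its values describe them and support nothing further. Of the 10751 genes that reached 50 counts over both groups, 210 (1.95%) were 2-fold or more higher and 29 (0.270%) 2-fold or more lower. The ubiquitin ligase gene Ube2c, which helps end mitosis, had 316 counts (77.0 CPM) in the 169 cells against 27 (2.04 CPM) in the 718, a ratio of 37.7 (25.4 to 58.0). Pclaf, a binding partner of Pcna, had 700 against 52 counts, a ratio of 43.3 (32.6 to 58.6). Cenpa, the histone variant of centromeres, was at 96.7 against 3.18 CPM and the survivin gene Birc5 at 58.0 against 1.97 CPM. Cdca3, Rrm2, the non-coding RNA gene Lockd, Cks2, Cenpw, Spc25, Cenpf and Hist1h2ap followed with ratios from 29.4 down to 5.77. Summed over each whole list, S phase genes were at 689 against 212 CPM, a ratio of 3.25 (3.09 to 3.43), with 29 of 36 genes past the count filter. G2/M genes were at 1111 against 113 CPM, a ratio of 9.84 (9.28 to 10.4), with 28 of 41 past it.

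On the lower side, 2 of the genes with 200 or more counts over both groups, from which named genes were taken, were 2-fold or more lower, Mbp and Trf. The others of the 29 had fewer counts. The lipid carrier gene Apoe was at 580.2 CPM in the 169 cells against 959 CPM in cells with 0, for a ratio of 0.605 (0.579 to 0.632). Npy, which encodes a neuropeptide, was at 27.5 against 47.3 CPM, but few cells carried it. It was found in 145 of the 718 cells, and 10 of these held 39.5% of its counts there. In the 21 cells with 10 or more markers it had 38 counts in 5 cells, 57.9% of them in 1 cell. Its level in those 21 was above that of cells with 0. The myelin gene Mbp had the lowest ratio, 0.0869, but 96.6% of its 407 counts in the 718 cells came from 1 cell, and 59.8% of those of the transferrin gene Trf likewise. Tmem191c, Fmod, Fxyd1, Oxld1, Gin1, S100a6, Aagab and Dolk had ratios between 0.555 and 0.631. The BMP response list summed to a ratio of 0.914 (0.895 to 0.932) and the quiescence and astrocyte list to 0.842 (0.837 to 0.848), against a median log2 ratio of 0.07 over all genes, or -0.03 with TMM scaling (an estimate of library composition).

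Because the 169 cells were mostly single-count cells, their average hid the 21 richest. A comparison of these 21 with the 432 EGF cells at 10 or more counts was therefore added after the data had been seen, as were those with exactly 1 and with 4 or more counts. The median depth at this step was 25306 counts in BMP4 and 29377 in EGF cells. Mki67 was at 216 CPM in the BMP4 and 201 CPM in the EGF cells, Top2a at 436 and 406, and Cdk1 at 122 and 125, which the common step fixes in part. S phase genes summed to 2022 CPM (1909.9 to 2139.9) in BMP4 and 1975 CPM (1951 to 1999) in EGF cells, a ratio of 1.02 that became 0.856 with TMM scaling. G2/M genes summed to 5212 CPM (5030.4 to 5399) and 5494 CPM (5454 to 5535), a ratio of 0.949, or 0.793 with TMM. TMM scaling moved all log2 ratios between these 2 groups by 0.26 toward EGF, and those between the 21 cells and BMP4 cells with 0 by 0.16 toward the latter. Marker-positive cells as a whole gave 0.399 (0.384 to 0.415) for S phase and 0.308 (0.299 to 0.317) for G2/M genes.

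Most single cycle genes had close levels at this step. Ccnb1 was at 191 CPM in the 21 BMP4 cells and 197 CPM in the EGF cells, Cenpa at 411 and 421, and Birc5 at 300.2 and 328 CPM. The helicase subunit gene Mcm2 was at 48.6 and 34.8 CPM, Pcna at 188 and 119, and Rrm2, a subunit of the enzyme that makes deoxynucleotides, at 255 and 191 CPM. Lower in BMP4 cells were Uhrf1, which maintains DNA methylation at replication (45.3 and 84.6 CPM), the mitotic kinase gene Plk1 (30.2 and 44.3 CPM, from 18 counts in BMP4) and the Cdk1 subunit gene Cks2 (408 and 636 CPM). Among the regulators, E2f1 was at 57.0 and 30.6 CPM, Mybl2, which encodes B-MYB, at 23.5 and 29.6, and Foxm1 at 36.9 and 43.3 CPM. In BMP4 cells with 0 markers these 3 were at 1.89, 0.454 and 2.57 CPM. Of the 32 S phase and 40 G2/M genes with 200 or more counts over both groups, 0 were 2-fold or more higher or lower in BMP4 cells, against 752 higher (11.4%) and 591 lower (8.93%) of the 6620 genes measured. Below that filter Cdc45 was at 15.1 and 6.84 CPM and Cdt1 at 26.8 and 12.6 CPM. Both sides share the step of marker counts, so these counts describe cells picked for cycle genes.

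**Figure D3:**
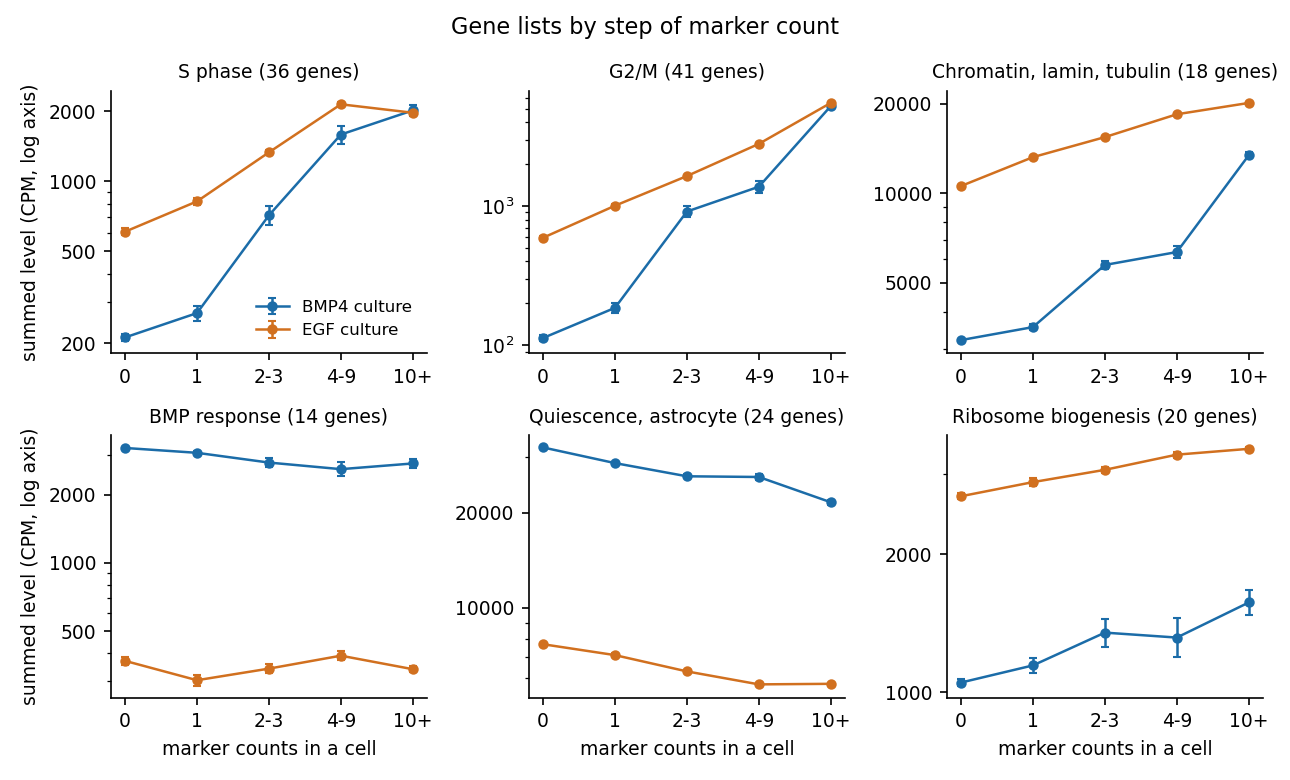
Summed level of 6 gene lists (y axis, CPM, logarithmic, scaled separately in each panel) by step of raw marker counts in a cell (x axis) in the BMP4 and EGF cultures, with exact Poisson 95% intervals. S phase and G2/M levels of the cultures meet at 10 or more counts, while the BMP response stands between 2599.8 and 3226 CPM in BMP4 and between 303 and 389 CPM in EGF cells.

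The BMP response was present in the cells richest in markers. The 14 genes summed to 2755 CPM (2624 to 2892) in the 21 cells, against 3226 CPM (3195 to 3257) in BMP4 cells with 0 and 339 CPM (329.5 to 349) in EGF cells at the same step, a ratio of 8.12 (7.67 to 8.59) to the last, or 6.79 with TMM. After thinning, the 21 cells held 6 to 23 counts of the list with a median of 13, and all 21 lay above 4, the 95th percentile of EGF cells. Of the 31 cells with 4 or more marker counts all 31 lay above it, and of the 169 marker-positive cells 165 did (97.6%, 94.1 to 99.4), against 714 of 718 with 0. The highest EGF cell held 17. Id1, a dominant-negative partner of bHLH factors, was at 340.4 CPM in the 21 cells, 379.8 in cells with 0 and 24.0 in EGF cells, Id2 at 1028, 1334 and 81.4, and Id3 at 486, 726 and 184 CPM. Id1 was found in 21 of 21 cells, and after thinning in 14 of 21 (66.7%), against 563 of 718 (78.4%) with 0 and 37 of 432 EGF cells (8.56%). The inhibitory SMAD gene Smad6 was at 50.3, 44.2 and 0.076 CPM, the last from a single count.

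**Figure D4:**
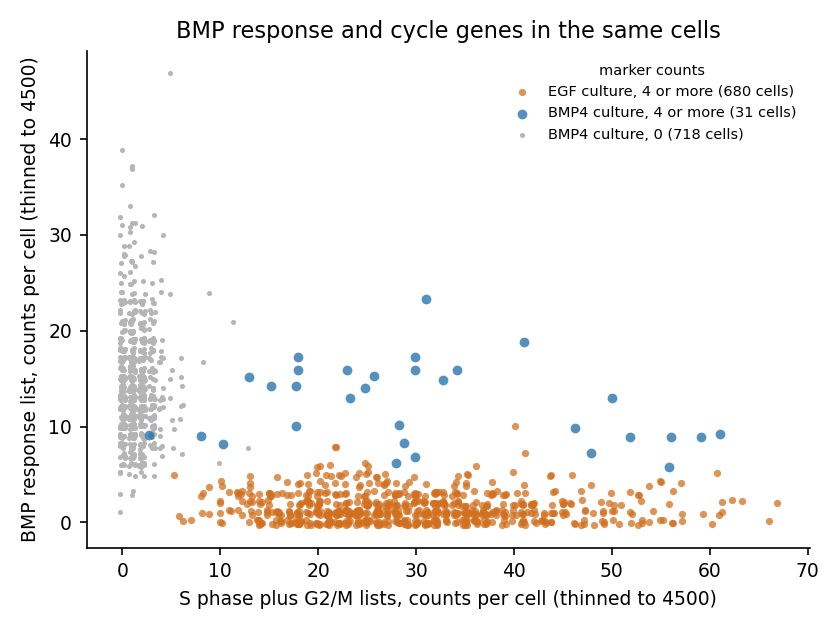
Counts per cell of the BMP response list (y axis) against the S phase plus G2/M lists (x axis), each cell thinned to 4500 counts, for cells with 4 or more marker counts in both cultures and BMP4 cells with 0. The 31 BMP4 cells spread along the cycle axis at 6 or more BMP response counts, above nearly all of the 680 EGF cells, whose overall median is 1.

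Astrocyte and quiescence genes were intermediate in the 21 cells, nearer to the rest of the BMP4 culture. The 24 genes summed to 21544 CPM (21173 to 21919.8), against 32075 CPM in BMP4 cells with 0 and 5767 CPM in EGF cells at the same step. Through the steps of 0, 1, 2 to 3, 4 to 9 and 10 or more counts the sum was 32075, 28628, 26014, 25883 and 21544 CPM in BMP4, and 7687, 7103, 6311, 5744 and 5767 CPM in EGF cells. After thinning, 17 of the 21 cells (81.0%, 58.1 to 94.6) held more than 58.55 counts, the 95th percentile of EGF cells. The members differed: Apoe was at 371 CPM in the 21 cells and 959 in cells with 0, and the protease inhibitor gene Cst3 at 2512 and 5541 CPM. The glutamate transporter gene Slc1a2 was at 649 and 732 CPM, Slc1a3 at 1741 and 1208 CPM, and the water channel gene Aqp4 at 597 and 811 CPM. Gfap, the astrocyte filament, was at 31.9 and 40.0 CPM, from 19 counts in the 21 cells. In EGF cells with 10 or more markers Aqp4 and Gfap had 0.152 CPM each.

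The D cyclins, which with Cdk4 and Cdk6 take a cell out of G1, were those of the BMP4 culture. Ccnd2 was in 21 of 21 cells with 36 to 321 counts each (median 118), at 4187 CPM against 4212 in BMP4 cells with 0 and 1033 in EGF cells with 10 or more, where the ratio was 4.05. Ccnd1 was in 9 of the 21 cells with 20 counts in all, at 33.5 CPM against 25.8 CPM in cells with 0. In the 432 EGF cells it was detected in every cell, from 3 to 101 counts with a median of 25, at 923 CPM, a level 27.5-fold that of the 21 cells (17.8 to 45.1). Cell by cell at equal depth, Ccnd1 was in 2 of 21 thinned cells (9.52%, 1.17 to 30.4) and in 408 of 432 EGF cells (94.4%). Ccnd3 was at 75.5 and 89.5 CPM, Cdk4 at 226 and 661, and Cdk6 at 6.71 and 30.4 CPM, the first of these from 4 counts. Within the BMP4 culture Cdk4 was at 149 CPM in cells with 0. The sum of the 6 genes, almost all of it Ccnd2, had a ratio of 1.01 between the 21 cells and those with 0, which became 0.907 with TMM.

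Inhibitors of the cycle were expressed in these cells as well. The 15 genes summed to 1778 CPM (1672 to 1888) in the 21 cells, 1183 CPM in BMP4 cells with 0 and 1507 CPM in EGF cells with 10 or more, a ratio of 1.18 to the latter that became 0.987 with TMM. Cdkn2c, an inhibitor of Cdk4 and Cdk6, was at 538 CPM in the 21 cells, from 321 counts, against 52.5 CPM in cells with 0 and 232 CPM in EGF cells. Through the 5 steps it was at 52.5, 62.5, 121, 178 and 538 CPM in BMP4 and 43.9, 60.4, 82.7, 138 and 232 CPM in EGF cells. Cdkn2d was at 85.5, 21.9 and 70.5 CPM in the 21 cells, cells with 0 and EGF cells, the p21 gene Cdkn1a at 558, 436 and 548 CPM and the p27 gene Cdkn1b at 40.2, 41.9 and 38.3 CPM. The retinoblastoma relative Rbl1 was at 26.8 CPM, from 16 counts, against 2.65 CPM in cells with 0. Gas1, a surface protein that restrains growth, was at 31.9 CPM in the 21 cells and 146 CPM in EGF cells.

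**Figure D5:**
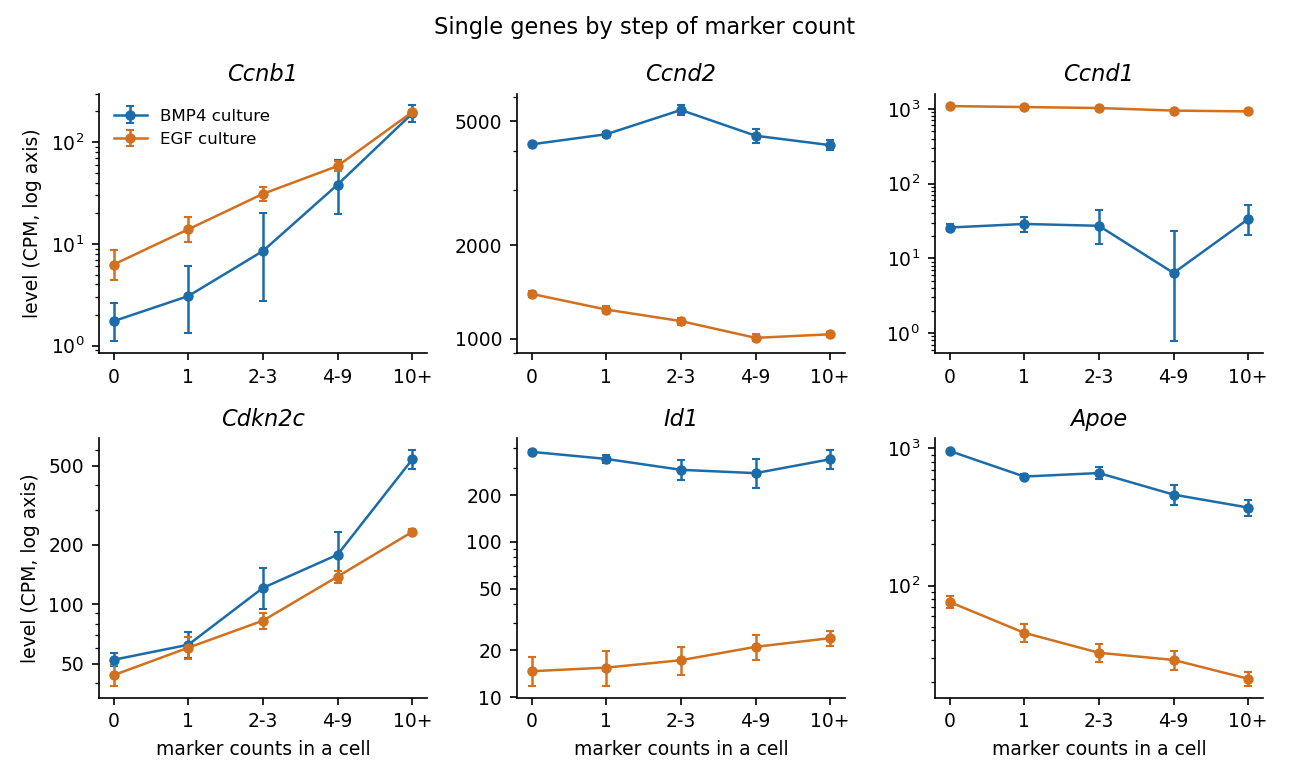
Level of 6 genes (y axis, CPM, logarithmic, scaled separately in each panel) by step of raw marker counts in a cell (x axis) in both cultures, with exact Poisson 95% intervals. Ccnb1 meets between the cultures at 191 and 197 CPM, Ccnd1 and Ccnd2 stay apart at every step, and Cdkn2c reaches 538 CPM in BMP4 and 232 CPM in EGF cells.

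Progenitor genes were mixed. The 16 genes of the list summed to 4719 CPM in the 21 cells, 4829.8 CPM in BMP4 cells with 0 and 5719 CPM in EGF cells with 10 or more, with members on both sides. Nes, the intermediate filament of dividing neural progenitors, was at 21.8 CPM in the 21 cells (13 counts in 6 cells), 7.50 CPM in BMP4 cells with 0 and 167 CPM in EGF cells with 10 or more. Egfr, the receptor for EGF and not one of the 16, was at 10.1 CPM (6 counts in 4 cells), 16.0 and 78.9 CPM. Its share of thinned cells was 1 of 21 (4.76%, 0.120 to 23.8), 44 of 718 (6.13%) and 124 of 432 (28.7%). The EGF and ERK response list of 15 genes, Egfr among them, went the other way, with 1482, 1509.7 and 1166 CPM. The ratio of this list to EGF cells was 1.27, or 1.06 with TMM. The transcription factor gene Sox11 was at 176 CPM in the 21 cells, 80.6 in cells with 0 and 446 in EGF cells, and Pax6 at 154, 87.5 and 48.0 CPM. The Notch target gene Hes5 was at 164, 239 and 22.6 CPM. Olig2 was at 131, 149 and 344 CPM. Dcx, the neuroblast marker, had 0 counts in the 21 cells and 5 in the 718, and the neuroblast list summed to 73.8, 81.5 and 298 CPM. Its members differed, and Cd24a was among those higher in EGF cells. Of its 12 genes, Dcx, Tubb3, Stmn2, Dlx5 and Gad1 went the other way in sum. These were at 11.7 CPM in the 21 cells, from 7 counts, 8.18 in cells with 0 and 5.42 CPM in all marker-positive EGF cells.

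Gene by gene, the widest gaps between the 21 BMP4 cells and the 432 EGF cells were in the following genes. In each, BMP4 cells with 0 lay on the same side of the EGF cells, so the gaps are not particular to the 21 cells. The rule for named genes was applied to this comparison after the data had been seen. Ncan, a brain proteoglycan, was at 11143 against 261 CPM, a ratio of 42.7 (41.0 to 44.5), with 16179 CPM in BMP4 cells with 0. Pcp4 was at 322 against 2.89 CPM, Selenom at 2185 against 56.0, the calcium-binding protein gene S100b at 304 against 9.66, and the pump subunit gene Atp1b2 at 469.6 against 26.2 CPM. In BMP4 cells with 0 these were at 426, 4306, 354 and 508 CPM. Aqp4 was also among them, and Slc1a2, Grin3a, Bhlhe41, Phyhipl and Apoe followed, with ratios from 26.3 down to 17.7. Lower in BMP4 cells was Trp53i11, a p53-inducible gene, with 1 count against 5451 (1.68 and 415 CPM), and at 3.56 CPM in BMP4 cells with 0. Apln, a peptide hormone gene, was at 8.38 against 278 CPM. Prr18, Lrrc7, Bcat1, the lactate transporter gene Slc16a3, Barx2, Eya2, Hivep3 and Sema5b had 0 counts in the 21 cells. From a floor of 3 counts over the 21 cells, Prr18 was at least 8.81-fold lower and Slc16a3 at least 5.53-fold lower. The genes named here as lower passed the count filter through the EGF cells. They were picked as the lowest ratios of this comparison, so their ratios are loose and describe the pick only.

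Over all 169 marker-positive cells, the same contrast called 2286 of 11527 genes (19.8%) 2-fold or more higher than in marker-positive EGF cells and 1473 (12.8%) lower. It shares its BMP4 cells with the comparisons above. Inpp5j had 364 counts against 0, or 819-fold higher when the 0 is replaced by a floor of 3 counts. The lipid droplet gene Cidea had 1246 against 2. Diras2, Ccdc3, Sphk1, Caln1, Fam107a and Stum were further genes of this side, with 222 to 1340 counts in the 169 cells and at most 54 in the 1112. On the other side stood the surface protein gene Cd24a at 7.06 against 309 CPM and the vasodilator peptide gene Adm at 1.22 against 63.5 CPM. Arhgdig, Inhbb and Gsx1 had 0 counts in the 169 cells, and Nptx2, Golga7b, Scml4 and Spp1 had 1 or 2. Genes at or near 0 counts in either group passed the count filter through the other group. They were picked for the widest ratios, so their ratios are loose and describe the pick only.

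Within the BMP4 library the 21 cells differed from the 718 in more than the S phase and G2/M lists. Of 6777 genes with 200 or more counts over both groups, 299 (4.41%) were 2-fold or more higher and 169 (2.49%) 2-fold or more lower. Without the 5% of cells of most counts, which left 18 of the 21 and was likewise added after the data had been seen, these were 351 (5.46%) and 289 (4.50%) of 6424. Chromatin, lamin and tubulin genes of dividing cells summed to 13439 CPM against 3213, a ratio of 4.18 (4.08 to 4.28), and stood at 20149 CPM in EGF cells. Of these, the chromatin protein gene Hmgb2 was at 1038 against 57.9 CPM, the histone variant gene H2afx at 518 against 26.8 and the tubulin regulator gene Stmn1 at 433 against 26.6 CPM. Lower in the 21 cells were the GABA receptor gene Gabrb1 (9 counts, 15.1 against 83.3 CPM), the microtubule end protein gene Mapre3 (5.03 against 31.9 CPM), the neuronal gene Cend1 (8.38 against 42.1), the homeobox gene Dbx2 (5.03 against 25.3) and the cadherin gene Cdh11 (6.71 against 32.4). Tyw5, Fmod, Tmem38a, Frmpd1, Fkbp11 and Alg1 completed this side with 1 to 6 counts each in the 21 cells. All genes named on this side passed the count filter through the 718 cells and had few counts in the 21. They were picked as the lowest ratios of the 6777 genes, so their ratios are loose.

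Lists of growth and metabolism differed less within the BMP4 culture than the cycle lists did. Ribosome biogenesis genes summed to 1571 CPM in the 21 cells, 1050.5 CPM in cells with 0 and 3401 CPM in EGF cells with 10 or more. Ribosomal protein genes summed to 74794, 67244 and 119254 CPM, and the ratio of 1.11 within the BMP4 culture became 0.996 with TMM. Nuclear genes of oxidative phosphorylation were at 15282, 20522 and 14779.6 CPM, a ratio of 1.03 to EGF cells that became 0.865 with TMM, and glycolysis genes at 3228, 4566 and 4719 CPM. Cholesterol synthesis genes were at 812, 961 and 1608 CPM, and immediate early and stress genes at 1655, 1958 and 676 CPM. Oligodendrocyte lineage genes were at 894, 1629 and 857 CPM, with a ratio of 1.04 to EGF cells that became 0.872 with TMM. The p53 target list was at 1949, 1697 and 1819 CPM, where the ratio to EGF cells, 1.07, became 0.896 with TMM. For the APP and CPEB families, which the series follows elsewhere, App was at 322, 398 and 62.6 CPM and Cpeb4 at 31.9, 44.1 and 23.6 CPM, and Aplp1 had 6 counts in the 21 cells.

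A gene by gene position put these levels on a common scale. For 1168 genes at least 4-fold apart between BMP4 cells with 0 (position 0) and marker-positive EGF cells (position 1), the median position on the log2 scale was 0.06 for all 169 marker-positive cells, 0.01 for single-count cells and 0.20 for the 21 cells with 10 or more. In these 21, the 644 genes higher in BMP4 cells had a median of 0.09 and the 524 genes higher in EGF cells a median of 0.86, with 249 of them at 0.9 or above. By list the medians were 1.06 for S phase (29 genes), 1.10 for G2/M (40 genes) and 0.95 for chromatin, lamin and tubulin (14 genes). They were 0.35 for neurogenic progenitor (3 genes), 0.00 for BMP response (9 genes), 0.04 for quiescence and astrocyte (15 genes), 0.40 for ribosome biogenesis (4 genes) and 0.05 for immediate early genes (7 genes). Position 1 is here set by EGF cells of all marker counts from 1 up, an unlike step. With EGF cells of 10 or more markers as position 1, the medians were 1.04 for S phase, 1.00 for G2/M and 0.88 for chromatin, lamin and tubulin. Cycle genes are included in the 524. The pseudocount of 0.5 counts in log2 ratios weighs more in a group with fewer counts in all. The 21 cells held 596315 counts and BMP4 cells with 0 held 13208282. Genes higher in EGF cells that had few or 0 counts in the 21 cells are thereby placed nearer to position 1. How far the medians of 0.86 and 0.20 rest on this was not tested.

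The marker-positive share of a culture also differed from its own cells with 0 by different amounts. The ratio between marker-positive cells and cells with 0 in BMP4 was divided by that in EGF for the 7078 genes with 200 or more counts in each culture, and 26 (0.367%) were 2-fold or more higher and 23 (0.325%) lower. Cdca3 had a ratio of ratios of 10.9 (7.49 to 15.8), Cenpa of 8.80 (6.35 to 12.2), Pclaf of 6.64 (4.96 to 8.89) and Lockd of 6.08 (4.84 to 7.64). The cultures' own contrasts with their cells of 0 markers called different numbers of genes. In EGF, 557 of 11397 genes (4.89%) were 2-fold or more higher in marker-positive cells and 104 (0.913%) lower, and at 10 or more markers 487 of 7467 (6.52%) were higher and 45 (0.603%) lower. In EGF cells with 0 markers Cdca3 was already at 83.5 CPM and Cenpa at 102 CPM, against 2.42 and 3.18 CPM in BMP4 cells with 0. Ube2c, Birc5, Cenpw and Pcp4l1 followed with 4.87 to 2.98. On the other side were the cytokinesis kinase gene Cit at 0.278 (0.185 to 0.417), Ifrd1 at 0.410 (0.341 to 0.494) and Pax6 at 0.442 (0.345 to 0.566), with Trf, Sapcd2, Diaph2, Hist1h2ap and Gucy1b1.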

How the data were processed

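Single-cell libraries of 2 cultures of wildtype mouse neural stem cells, 1 treated with BMP4 and 1 with EGF, were used. The values deposited by the authors are whole-number counts per gene and cell for 27998 genes, of whose identifiers 98.7% have a symbol. The submitters' processing notes name mm10 as the build and list Cell Ranger, Bowtie2 and SAMtools. Versions, cell filters, strand setting and whether a count is a molecule were not given in the sources used here. Samples were grouped by their treatment labels. The other 12 samples were not used here.

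All deposited cells were kept, no doublet caller was run and free RNA was not removed. The 5% deepest cells (above 40940 counts in BMP4 and 38323.6 in EGF) were left out as an alternative. Counts were summed over cells of a group and given as CPM with exact Poisson intervals, and ratios with exact conditional binomial intervals. A gene entered a comparison at 50 counts over both groups (200 for the cells with 10 or more markers), with a pseudocount of 0.5 counts in log2 ratios. Thinning drew 4500 counts per cell without replacement. TMM factors came from edgeR 4.0.16, and the rest from Python 3.11.15, numpy 2.4.6, scipy 1.17.1 and pandas 2.3.3. Ratios, intervals and thinning were tested on simulated data. With 1 library per culture no test was made.

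Named genes were the 3 rule genes, the 12 largest ratios and 8 largest ratios of ratios in either direction (here a gene needed at least 200 counts), the 2 largest each way of every list among those with 50 or more and a fixed set of 24 genes, passing over predicted genes, and single genes named beyond these (among them Cdc45 and Cdt1) were chosen after their values were seen. A few genes that the rule names are not reported here. The cells, the 23 lists and these rules were chosen with earlier results of these data known. Promoters and coordinates are from RefSeq GRCm38.p6, the assembly of mm10, and motifs were searched as exact letters.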

Additional observations from a re-analysis of the deposited data

How the results depend on the processing

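The share of marker-positive cells moved with every setting that touched the rule. It was 19.1% in BMP4 and 78.9% in EGF cells as reported, 6.43% and 52.6% after thinning, 6.09% and 65.3% at 2 or more raw counts, 4.06% and 54.3% at 3 or more, 3.49% and 48.2% at 4 or more, and 2.37% and 30.6% at 10 or more. For Mki67 alone it was 7.44% and 58.1%, for Top2a alone 10.0% and 64.8%, and for Cdk1 alone 9.13% and 48.4%. The settings of 4 or more, 10 or more and exactly 1 raw count were chosen after seeing the data, and the count filter of 50 was kept in them here.

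Between marker-positive BMP4 cells and those with 0, 210 genes were 2-fold or more higher and 29 lower. These became 521 and 168 at 2 or more counts, 744 and 302 at 3 or more, 792 and 333 at 4 or more, 993 and 511 at 10 or more, 36 and 53 at exactly 1, 493 and 184 for cells chosen after thinning, 572 and 254 for genes with 10 or more counts, 44 and 2 for genes with 200 or more, and 90 and 4 at 4-fold. The lower count alone moved to 54 without the deepest cells, 47 with TMM and 55 with each cell's own CPM. The S phase median log2 ratio was 1.98, and 3.25, 3.48, 3.44, 3.38 and 0.37 at 2, 3, 4 and 10 or more and exactly 1 count, 2.84 after thinning and 1.14 for genes with 200 or more counts. The G2/M median was 4.74, and 6.15, 6.61, 6.61, 6.93 and 0.35 at those 5 settings. The BMP response median, -0.03, became 0.21 after thinning.

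Against marker-positive EGF cells, 2286 genes were higher and 1473 lower. The higher count was 1482 for genes with 200 or more counts and 778 at 4-fold, and the lower count 405 at 4-fold, 957 at 10 or more and 837 at exactly 1 count. The S phase median reversed from -1.24 to 0.07 at 3 or more, 0.04 at 4 or more and 0.15 at 10 or more, and was -0.24 at 2 or more, -0.44 after thinning and -2.25 at exactly 1. The E2F, MYB and FOXM1 list reversed to 0.05 at 3 or more and 0.31 at 10 or more. The G2/M median, -1.73, was -0.55, -0.21, -0.18, -0.01 and -2.67 at 2, 3, 4 and 10 or more and exactly 1, -0.81 after thinning and -1.28 without the deepest cells. The BMP response median, 3.97, was 4.95 for genes with 10 or more counts and 4.91 at exactly 1. The settings of 2, 3, 4 and 10 or more counts leave out the single-count cells, 68.0% of the marker-positive BMP4 cells. The cause of the other moves was not tested.

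Of ratios of ratios, 26 were higher and 23 lower. The higher count was 42, 59, 69, 99 and 3 at 2, 3, 4 and 10 or more and exactly 1 count and 43 after thinning, and the lower count 47, 96 and 2 at 4 or more, 10 or more and exactly 1. The median position of 0.06 was within its spread at every alternative run. Among the single lists and genes not repeated here, 692 of 999 values stayed within their counting error and 305 moved without reversing. No paired analysis was possible because each culture is 1 library, and the 2 compared share fewer than 2 replicate numbers.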
